A study of Mus musculus with 4 samples.

Results

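Transcripts of 7 genes of the cGAS and STING pathway were followed through leukocytes from mouse tumors: Sting1, Cgas, Tbk1, Ikbke, Irf3, Trex1 and Enpp1. They were chosen by gene symbol from the 33696 genes in each deposited matrix, and all 7 were found. Between 3589 and 22497 unique molecular identifiers (UMIs, each standing for 1 captured transcript) were counted for each of 6 genes in the cells kept, and 6 for Trex1.

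Tumors grew from subcutaneously injected KPC cells, a mouse pancreatic cancer line, in syngeneic male C57BL/6 mice aged 8 to 10 weeks. The untreated group was compared with mice that received the STING agonist ADU-S100, given once into the tumor at 2 µg on day 0, with mice that received the LTβR agonist, the antibody 4H8 at 100 µg intraperitoneally every 3 to 4 days for 4 injections until day 10, and with mice that received both (combination). Live CD45+ cells were sorted from tumors resected on day 14, after 10 tumors of a group had been pooled, so that each group is 1 library from 1 tumor line. The single-cell work was done in 2 independent mouse experiments, of which the 4 libraries of this series, 1 per group, were analysed here. There were therefore no replicates among the libraries used, and no test between groups was possible with them. All intervals below are 95% intervals that cover counting error only, and a library stands for its pool of tumors, not for the treatment in general.

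The pathway begins with cGAS, an enzyme that senses DNA in the cytosol and makes the messenger cGAMP. STING, in the endoplasmic reticulum membrane, binds cGAMP and recruits the kinase TBK1, with IKKε (Ikbke) as its close relative, and TBK1 phosphorylates the transcription factor IRF3, which then induces type I interferon genes. A pair of brakes act before STING: the exonuclease TREX1 degrades cytosolic DNA, and the ectoenzyme ENPP1 hydrolyzes cGAMP outside cells. Myeloid cells and dendritic cells are well known as users of this pathway, and the STING agonist given here is an analog of cGAMP.

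The 4 matrices held 8730, 15404, 14634 and 16322 cells (untreated, STING agonist, LTβR agonist, combination), with median depths of 4712, 3187, 3731 and 2158 UMIs per cell and totals between 52109958 and 85855398 UMIs. Between 109 and 180 cells per library carried a barcode also found in another library. After filters, 7524, 13444, 13223 and 14667 cells were kept and clustered, and clusters were named from marker genes. Macrophages and monocytes were kept as 1 class and were the largest in each library (3995, 5777, 7233 and 8380 cells). Neutrophils made up 6.67%, 40.0%, 7.47% and 8.89% of leukocytes, and plasma cells 1.42%, 0.484%, 3.05% and 5.70%. B cells reached 50 cells, the minimum for a level to be used, in the LTβR agonist and combination libraries alone, and plasmacytoid dendritic cells (pDC) in all but the combination. A cluster of 153 to 249 cells per library was placed with the carcinoma list by Krt8, Krt18 and Krt19, but its summed fibroblast markers (1119 to 2266 CPM, defined below) exceeded its carcinoma markers (675 to 811 CPM), so it is called the Krt8 and Krt18 cluster here.

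Levels are given as CPM, that is UMIs of the gene per 1000000 UMIs of that cell type in that library, with immunoglobulin genes left out of the total. CPM was not corrected for transcript length, so levels of different genes are not compared with each other. Fewer cells that transcribe a gene and less RNA in each of them give the same CPM and cannot be told apart in these sums.

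**Figure D1:**
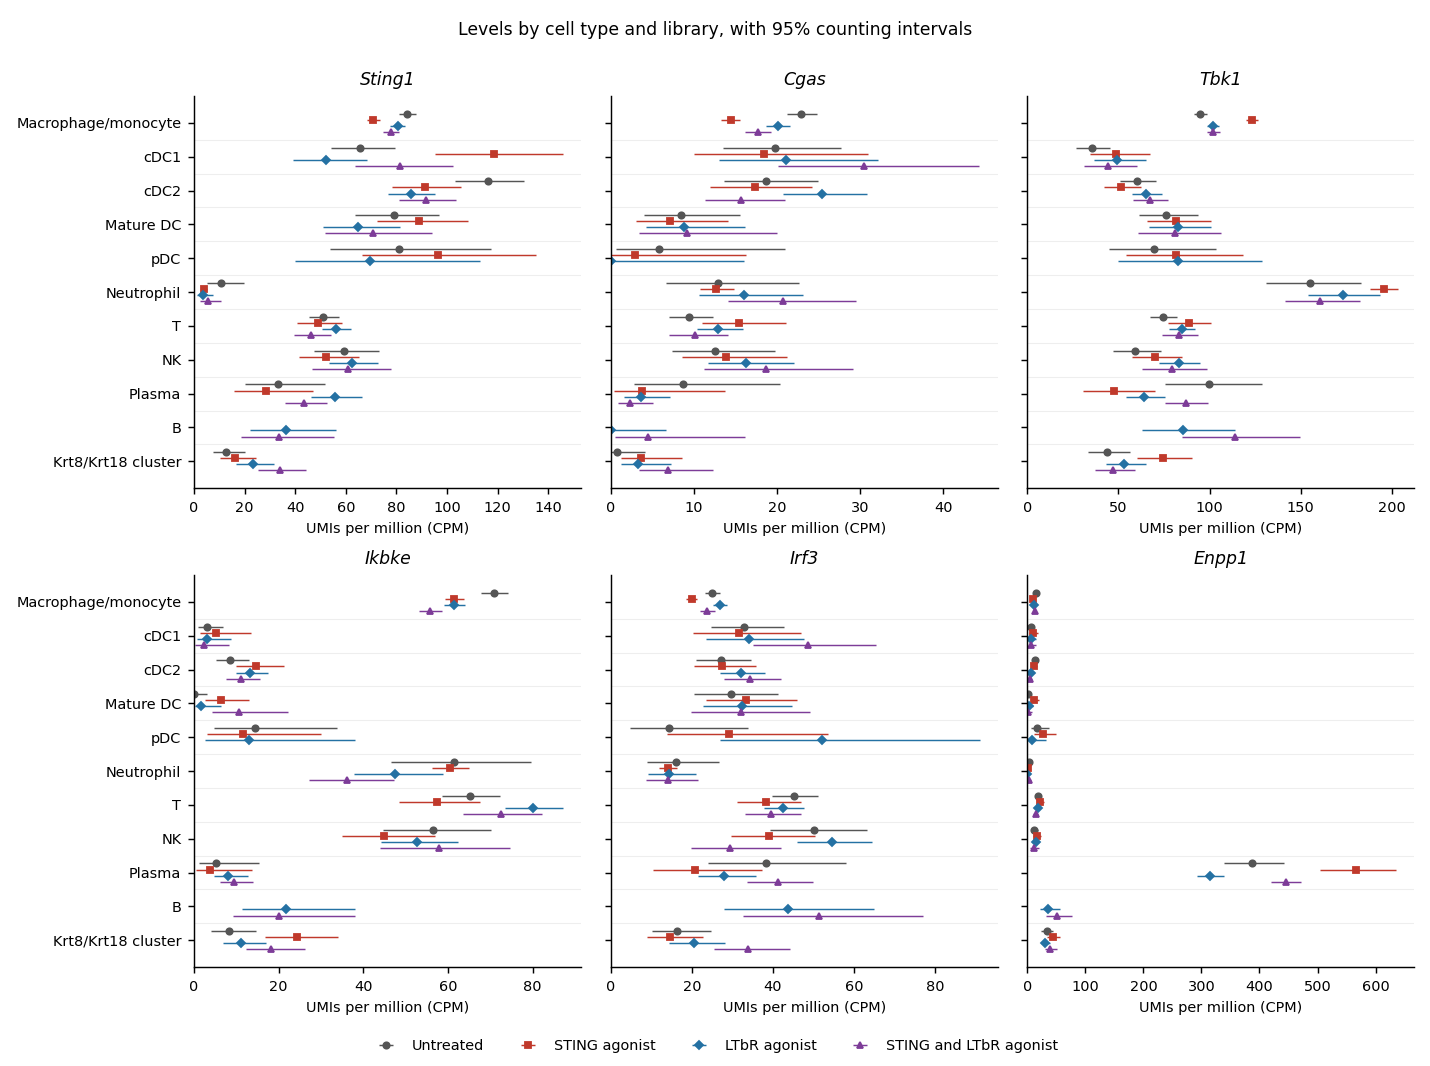
Level of 6 genes in CPM (x axis, each panel on its own scale from 0) by cell type (y axis) in the 4 libraries, with 95% counting intervals; only cell types with at least 50 cells are drawn. Sting1 is near 0 in neutrophils, where Tbk1 is at its highest in all 4 libraries, and Enpp1 stands between 315 and 567 CPM in plasma cells and at or below 51.3 CPM elsewhere.

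The adaptor Sting1 was counted above the level of carried RNA, estimated below, in most leukocyte types, and not in neutrophils. In macrophages and monocytes it stood at 84.3 CPM (2411 UMIs) in the untreated, 70.8 CPM (3097 UMIs) in the STING agonist, 80.4 CPM (3097 UMIs) in the LTβR agonist and 77.7 CPM (2253 UMIs) in the combination library. In conventional type 2 dendritic cells (cDC2) it was 116, 91.1, 85.6 and 91.8 CPM in the same order. Its level in cDC2 exceeded that in macrophages and monocytes in all 4 libraries, and in all but the LTβR agonist library the 2 intervals did not overlap. Lymphocytes were lower: T cells had 51.1, 49.1, 56.1 and 46.3 CPM, and natural killer (NK) cells 59.2, 52.2, 62.4 and 60.8 CPM, so that these neighbors in the order could not be separated by counting error in any library. Among T cells with a CD8 or CD4 transcript, CD8 T cells held 39.8, 37.8, 43.7 and 40.5 CPM and CD4 T cells 73.3 CPM (41 UMIs), 63.3 CPM (19 UMIs), 71.0 CPM (71 UMIs) and 34.3 CPM (12 UMIs). The CD4 level was the higher one in all but the combination library. It rested on only 12 to 71 UMIs, and this order was not judged by counting error. Plasma cells held 33.2, 28.5, 55.7 and 43.6 CPM. The macrophage RNA estimated to be carried in them would give 22.2, 24.5, 26 and 26.2 CPM, which lies inside the plasma cell intervals of the untreated (19.97 to 51.8 CPM) and STING agonist libraries (15.9 to 46.9 CPM) and below those of the other 2. This estimate is a rough one and can be too high, as Ikbke in plasma cells shows below.

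Neutrophils contained 10, 46, 6 and 8 Sting1 UMIs in 492, 5287, 973 and 1282 cells, that is 10.8, 3.77, 3.43 and 5.36 CPM. Free RNA in droplets can give such counts. If the macrophage and monocyte marker UMIs found in neutrophils had brought macrophage RNA with them, they would have carried 10.4, 7.79, 12.5 and 12 CPM of Sting1, so the counts in neutrophils were at or below this background in 3 libraries and about equal to it in the untreated library. Sting1 in neutrophils is read here as background and not as expression in any of the 4 groups, and the log2 ratio of -1.57 (-2.52 to -0.36) between the STING agonist and untreated libraries, although past 1.5-fold, is not read as a difference. After each cell had been thinned to 2000 UMIs, 0.592% of 2870 neutrophils of the STING agonist library (Clopper-Pearson interval 0.345% to 0.947%, 0.851% without thinning) held a Sting1 UMI, against 10.5% of 5037 macrophages and monocytes (9.67% to 11.4%, 31.1% without thinning); median depths were 2111 and 6983 UMIs. The share was 0.683% of 293 neutrophils in the LTβR agonist library (0.0828% to 2.44%), and higher in the untreated library, at 3.86% of 207 (1.68% to 7.47%, 2.03% without thinning), and in the combination, at 4.49% of 89 (1.24% to 11.1%, 0.546% without thinning). Thinning left out 285 of 492 and 1193 of 1282 neutrophils in these last 2 libraries. Neutrophils had the lowest Sting1 of all cell types in all 4 libraries, a count that went down to 1 library without doublet removal, to 1 when each cell was named on its own and to 2 after thinning.

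The largest Sting1 difference between libraries in a dendritic cell type was in type 1 conventional dendritic cells (cDC1), the Xcr1 and Clec9a positive cells that cross-present antigen. They held 65.7 CPM (110 UMIs) in the untreated, 119 CPM (90 UMIs) in the STING agonist, 52.1 CPM (52 UMIs) in the LTβR agonist and 81.3 CPM (72 UMIs) in the combination library. The level was highest in the STING agonist library, and its interval (95.3 to 146 CPM) lay above those of the untreated (54.0 to 79.2 CPM) and LTβR agonist libraries (38.9 to 68.4 CPM). The log2 ratio of the STING agonist to the untreated library was 0.85 (0.43 to 1.27), and that of the combination to the LTβR agonist library was 0.64 (0.11 to 1.18). Both were no longer past the rule when each cell was named on its own (0.31 and 0.07) and after thinning (1.77 and 0.56, from fewer UMIs), and the latter also without doublet removal (0.54). At equal depth, 9.66% (5.38% to 15.7%), 26.3% (15.5% to 39.7%), 11.6% (5.92% to 19.8%) and 19.7% (12.9% to 28.0%) of cDC1 held a Sting1 UMI. These values rest on 151, 62, 107 and 143 cells, and summed macrophage and monocyte markers in them were 754, 1084, 642 and 1262 CPM, which would have carried 3.7, 5.18, 3.79 and 7 CPM of Sting1.

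In the Krt8 and Krt18 cluster, Sting1 was counted at 12.6 CPM (17 UMIs), 16.2 CPM (22 UMIs), 23.3 CPM (42 UMIs) and 33.9 CPM (54 UMIs). Both libraries that received the LTβR agonist were past 1.5-fold over untreated, with log2 ratios of 0.86 (0.04 to 1.79) and, for the combination, 1.40 (0.62 to 2.31). The first no longer met the rule without doublet removal (0.36), after scaling to the median gene (0.81), with each cell named on its own (1.98) or after thinning (0.47), and the second with each cell named on its own (1.68) or after thinning (1.22). Fibroblast markers in this cluster were lowest in the combination library (1119 CPM against 1809 to 2266 CPM) and Malat1, a nuclear RNA, was also lowest there (11101 CPM against 13832 to 22612 CPM), and their part in the result was not tested.

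Cgas, the sensor, was counted sparsely (3589 UMIs in all). In macrophages and monocytes it stood at 22.9 CPM (656 UMIs) in the untreated, 14.4 CPM (631 UMIs) in the STING agonist, 20.1 CPM (775 UMIs) in the LTβR agonist and 17.7 CPM (513 UMIs) in the combination library. The STING agonist library was the lowest and its interval (13.3 to 15.6 CPM) overlapped none of the other 3. Its log2 ratio to the untreated library was -0.67 (-0.83 to -0.51), past 1.5-fold, but not after thinning (-0.57) or as a mean over cells (-0.45). The median of all genes tested in this class was itself -0.21 in that comparison, and relative to it Cgas was at -0.46.

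Among the 9 macrophage and monocyte clusters, Cgas was highest in the cycling cluster with Plk1, Kif20a and Cenpf among its 10 top genes, at 43.1 CPM over all libraries against 9.28 to 25.5 CPM in the other 8. This cluster held 237 of 3995 macrophages and monocytes in the untreated library and 123 of 5777 in the STING agonist library. In 8 clusters with cells in both libraries above the minimum, the STING to untreated log2 ratio of Cgas was between -0.04 and -1.15, below 0 in all 8, and past the 1.5-fold rule in 2 of the 7 with enough UMIs. With the 9 clusters weighted equally the ratio was -0.41 in place of -0.67. In T cells Cgas was also highest in the cycling cluster (36.7 CPM), and T cells as a whole differed in the other direction, from 9.39 CPM (52 UMIs) untreated to 15.4 CPM (39 UMIs) with the STING agonist, a log2 ratio of 0.72 (0.08 to 1.34). It was no longer past the rule without doublet removal (0.46), with each cell named on its own (0.65) or after thinning (0.50), and no single T cell cluster had enough UMIs for a ratio. The LTβR agonist and combination libraries lay between them at 12.9 and 10.1 CPM.

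Tbk1, the kinase that STING recruits, was highest in neutrophils in all 4 libraries: 155 CPM (144 UMIs), 196 CPM (2383 UMIs), 173 CPM (303 UMIs) and 161 CPM (240 UMIs). The neutrophil interval lay above that of every other cell type in 3 libraries, and in the combination (141 to 183 CPM) it overlapped that of B cells (84.7 to 150 CPM). Macrophages and monocytes held 94.8, 123, 102 and 102 CPM, and cDC1 held the lowest leukocyte level in all but the STING agonist library, at 35.3, 48.7, 49.1 and 44.0 CPM. As a cell type, neutrophils thus had the most Tbk1 and no Sting1 clearly above background. A single macrophage and monocyte cluster of 4461 cells, rich in Malat1 and described below, had more, at 188, 268, 205 and 186 CPM of Tbk1, with an interval above that of neutrophils in the STING agonist library alone, and it was low in Sting1 as well. At equal depth, 22.2%, 28.4%, 24.6% and 27% of neutrophils held a Tbk1 UMI.

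In macrophages and monocytes, the STING agonist library had more Tbk1 than the untreated one by a log2 ratio of 0.38 (0.31 to 0.44), under the 1.5-fold rule. The ratio was above 0 in all 8 clusters measured in both libraries, from 0.12 to 0.51, and the interval left out 0 in 6 of them. Neither the LTβR agonist (0.10, 0.03 to 0.17) nor the combination (0.11, 0.03 to 0.18) reached that size against untreated, and the combination lay 0.27 below the STING agonist library (log2 ratio -0.27, -0.34 to -0.21). Since the median gene of the STING agonist library was at -0.21, Tbk1 stood 0.59 above that median. Summed neutrophil markers in macrophages and monocytes were 551, 1244, 950 and 1153 CPM, highest in the STING agonist library, and the Tbk1 they would have carried was 1.51, 3.63, 2 and 2.76 CPM.

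In plasma cells Tbk1 was 99.5 CPM (57 UMIs), 47.4 CPM (25 UMIs), 64.3 CPM (142 UMIs) and 86.8 CPM (221 UMIs). The STING agonist library was lower than untreated by a log2 ratio of -1.05 (-1.81 to -0.37) and the LTβR agonist library by -0.64 (-1.08 to -0.16), while the combination exceeded the STING agonist library by 0.85 (0.27 to 1.53). Carried macrophage RNA would give 24.9, 42.6, 33 and 34.4 CPM in plasma cells, and that of the STING agonist library lies inside the measured interval (30.7 to 70.0 CPM), so that its Tbk1 is close to this estimate. The estimate can be too high: it gives 21.3 CPM of Ikbke in the same cells, where 3.79 CPM (upper limit 13.7 CPM) was counted. The STING agonist to untreated ratio was -0.22 when each cell was named on its own and -0.12 as a mean over cells, and that of the combination to the STING agonist library was 0.10 and 0.13. None of these ratios, that of the LTβR agonist to untreated included, met the rule with either setting or after thinning. Of the 105 untreated plasma cells, 58 belonged to the plasma cluster rich in Malat1 described below, against 23 of 64, 131 of 397 and 296 of 822 in the other libraries. In the Krt8 and Krt18 cluster Tbk1 was 43.8, 74.2, 53.1 and 47.1 CPM, highest with the STING agonist (log2 ratio to untreated 0.76, 0.28 to 1.25), where Malat1 was highest as well.

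**Figure D2:**
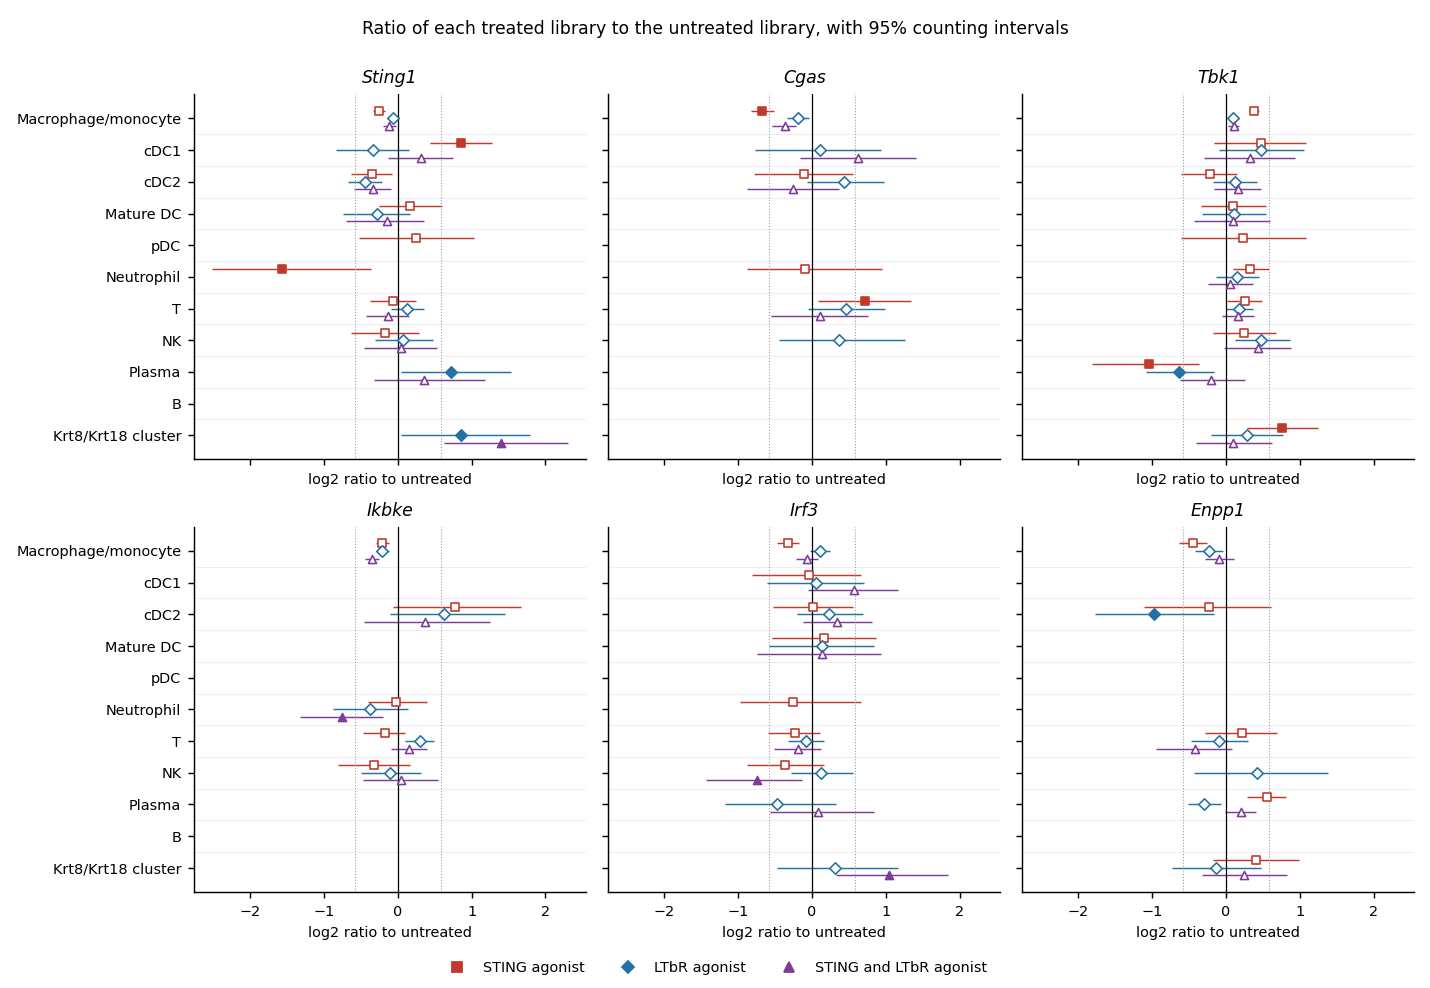
Log2 ratio of each treated library to the untreated library (x axis) for 6 genes by cell type (y axis), with 95% counting intervals. Filled symbols are past 1.5-fold (dotted lines) with an interval that leaves out 0, open symbols are not, and ratios from fewer than 50 UMIs over both libraries are not drawn; 14 of the values are filled.

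Ikbke, the second kinase, was divided between the cell types differently. It was high in macrophages and monocytes (71.0, 61.5, 61.4 and 55.8 CPM), T cells (65.2, 57.4, 80.1 and 72.5 CPM), NK cells (56.4, 45.0, 52.7 and 57.9 CPM) and neutrophils (61.5, 60.6, 47.4 and 36.2 CPM). Conventional dendritic cells, mature dendritic cells and plasma cells had little of it. The cDC1 held 5, 4, 3 and 2 UMIs, and mature dendritic cells, the Ccr7 and Fscn1 positive cells, held 0, 7, 2 and 7 UMIs in 184, 172, 186 and 186 cells. The count of 0, read as a limit of 3 counts, allows up to 2.54 CPM, and its exact interval ends at 3.13 CPM. The cDC2 held 21, 29, 54 and 32 UMIs (8.53 to 14.8 CPM), where carried macrophage RNA would give 13.4, 10.6, 18.1 and 18.3 CPM. Of their 2 clusters, the smaller one, led by Retnla, had 29.8 CPM and the one led by Cyp7b1 7.08 CPM. The former was placed with cDC2 by 4 markers (Cd209a, Clec10a, Mgl2 and H2-DMb2), none of them among its 10 top genes, which include Lyz1 and Ear2. In plasma cells the level (3.79 to 9.43 CPM) was below what their macrophage and monocyte markers would have carried (18.7 to 21.3 CPM), and in cDC1 (2.26 to 5.27 CPM against 2.9 to 5.03 CPM) and mature dendritic cells (0 to 10.7 CPM against 1.88 to 8.69 CPM) it was of that size.

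Set against its relative, Ikbke gave 86.7 UMIs per 100 Tbk1 UMIs in T cells over all libraries, 70.8 in NK cells, 58.1 in macrophages and monocytes, 30.4 in neutrophils, 19.3 in cDC2, 16.5 in pDC, 10.6 in plasma cells, 7.61 in cDC1 and 4.88 in mature dendritic cells. This ratio within a cell type does not depend on the total used for CPM, and it serves to compare cell types, not the 2 genes. T cells, NK cells and macrophages and monocytes stood above the other types in each of the 4 libraries. In T cells it was highest, at 139, in a cluster whose 10 top genes began with Nsg2 and held Lef1 and Tcf7, factors of naive and memory T cells, beside Klra1, Klra6 and Cd160, receptors also found on NK cells, followed by the cluster led by Foxp3, the factor of regulatory T cells, at 113. In the CD8 T cluster with Gzmk and Ifng among its top genes it was 47.4. The cluster led by Retnla that was placed with cDC2 gave 40.3, and the other cDC2 cluster 12.

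**Figure D3:**
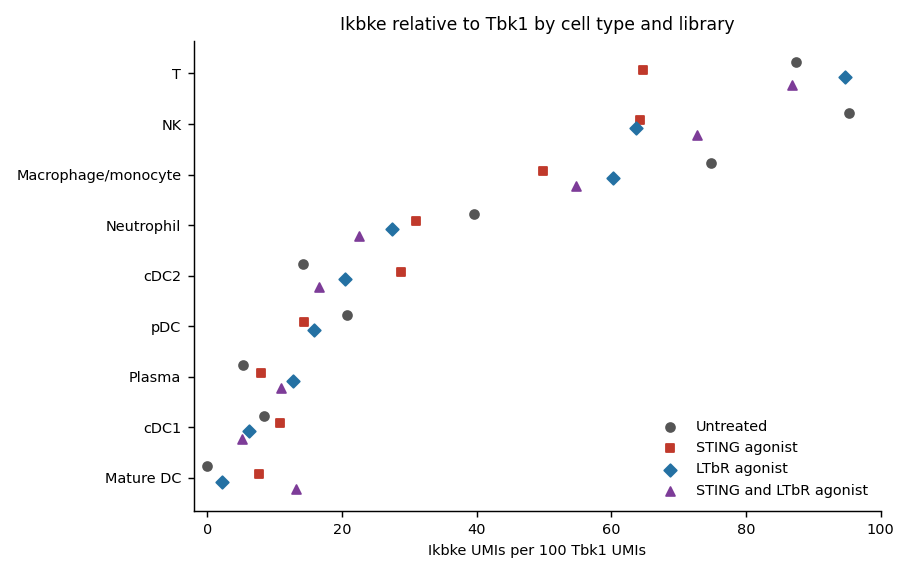
Ikbke UMIs per 100 Tbk1 UMIs (x axis) by cell type (y axis), with 1 point for each library that has at least 50 cells of the type. T cells, NK cells and macrophages and monocytes lie between 49.9 and 95.3, neutrophils between 22.5 and 39.6, and dendritic and plasma cells at or below 28.7.

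Ikbke in macrophages and monocytes was highest in the untreated library, and the log2 ratios to it were -0.21 (-0.29 to -0.12) for each agonist alone and -0.35 (-0.44 to -0.25) for the combination, none past 1.5-fold. In the monocyte cluster led by Ly6i and Ccr2 the LTβR agonist (-0.74, -0.99 to -0.49) and the combination (-0.77, -1.03 to -0.51) were past it. CD8 T cells went the other way, from 42.3 CPM (120 UMIs) untreated to 64.8 CPM (175 UMIs) with the LTβR agonist (log2 ratio 0.61, 0.27 to 0.96), with 36.9 CPM in the STING agonist and 59.2 CPM in the combination library. The CD8 T cells were a different mix in each library: the cluster with Lef1 and Tcf7 held 54 of 524 untreated, 57 of 216 STING agonist, 281 of 658 LTβR agonist and 272 of 673 combination cells, and the one with Gzmk and Ifng 363, 127, 304 and 317. Within them the LTβR agonist to untreated ratio was -0.17 (-0.78 to 0.53) and 0.27 (-0.27 to 0.80), so that the difference over all CD8 T cells was not seen past 1.5-fold within either cluster. In neutrophils the combination (54 UMIs) was below the untreated library (57 UMIs) by a log2 ratio of -0.76 (-1.33 to -0.20) and below the STING agonist library (738 UMIs) by -0.73 (-1.17 to -0.34). Without doublet removal neither met the rule (-0.49 and -0.41), nor did either after thinning (-1.22 and -1.20), and the latter did not with each cell named on its own (-0.31). Neutrophils formed 2 clusters in unequal parts. The one led by Mgam held 196 of 492 cells untreated, 3533 of 5287 with the STING agonist, 548 of 973 with the LTβR agonist and 607 of 1282 in the combination, and the one led by Nlrp12 held the rest. In the Nlrp12 cluster the combination was below untreated by -0.79 (-1.47 to -0.12) and differed from the STING agonist library by -0.16 (-0.73 to 0.35). In the Mgam cluster the latter ratio was -1.23 (-2.01 to -0.61), from 19 UMIs in the combination, and that to untreated had too few UMIs. The STING agonist to untreated ratio, near 0 for all neutrophils, was 0.80 (0.04 to 1.82, 12 UMIs untreated) in the Mgam cluster and -0.63 (-1.09 to -0.12) in the Nlrp12 cluster.

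Irf3, the transcription factor that TBK1 phosphorylates, was higher in T cells than in macrophages and monocytes in all 4 libraries, and low in neutrophils. NK cells held 50.1 CPM (72 UMIs), 39.0 CPM (59 UMIs), 54.7 CPM (141 UMIs) and 29.4 CPM (30 UMIs), and T cells 45.1, 38.4, 42.6 and 39.5 CPM. Macrophages and monocytes were at 25, 19.95, 26.9 and 23.8 CPM, and neutrophils at 16.2, 14.03, 14.3 and 14.1 CPM. The intervals of T cells and of macrophages and monocytes did not overlap in any library. In NK cells the combination was the lowest of the 4, by log2 ratios of -0.75 (-1.43 to -0.13) to untreated and -0.87 (-1.51 to -0.32) to the LTβR agonist library. At equal depth the share of NK cells with an Irf3 UMI was 11%, 5.64%, 9.4% and 7.73%, so the STING agonist library and not the combination was lowest by that measure.

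The Krt8 and Krt18 cluster held 16.3 CPM (22 UMIs), 14.7 CPM (20 UMIs), 20.5 CPM (37 UMIs) and 33.9 CPM (54 UMIs) of Irf3, with the combination past 1.5-fold over each of the other 3 (untreated, STING agonist, LTβR agonist; log2 ratios 1.04, 1.18 and 0.72). The ratio to the LTβR agonist library did not meet the rule without doublet removal (0.47) or with each cell named on its own (0.35), that to untreated did not with each cell named on its own (0.71), and none of the 3 did after thinning (1.5, 0.54 and 0.32 in the order LTβR agonist, untreated, STING agonist). In plasma cells Irf3 was 38.4, 20.9, 28.1 and 41.2 CPM, and the combination exceeded the STING agonist library (105 against 11 UMIs) by 0.93 (0.09 to 2.03). This ratio did not meet the rule after scaling to the median gene, and it turned to -0.38 after thinning.

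Of the brakes, Trex1 could not be read. Its 6 UMIs all fell in macrophages and monocytes, 1 in the untreated, 3 in the STING agonist and 2 in the LTβR agonist library. In the GENCODE M21 annotation of GRCm38 the gene lies on the minus strand at chr9:109057933-109059734, and all 1147 of its exon bases also belong to exons of Atrip, for which 2328 UMIs were counted in the same cells. None of the other 6 genes shares exon bases with a neighbor. How the authors' software assigned reads in shared exons was not tested, and the low count says nothing about how much Trex1 these cells transcribe.

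Enpp1, the ectoenzyme that hydrolyzes cGAMP, was concentrated in plasma cells. They held 388 CPM (222 UMIs) in the untreated, 567 CPM (299 UMIs) in the STING agonist, 315 CPM (696 UMIs) in the LTβR agonist and 445 CPM (1133 UMIs) in the combination library. The next cell types were B cells (36.4 and 51.3 CPM in the 2 libraries with enough cells) and the Krt8 and Krt18 cluster (33.4, 44.1, 30.4 and 39.6 CPM), and in each library the plasma cell interval lay far above them. T cells (14.3 to 22.2 CPM), NK cells (10.8 to 15.9 CPM) and macrophages and monocytes (10.6 to 14.5 CPM) were lower still. Neutrophils held 2, 13, 0 and 4 UMIs, the size that carried macrophage RNA would give (1.17 to 2.11 CPM). At equal depth 37.7% (26.9% to 49.4%), 44.4% (30.9% to 58.6%), 32.1% (26.9% to 37.7%) and 31.7% (27.6% to 35.9%) of plasma cells had an Enpp1 UMI. The log2 ratios between libraries within plasma cells were below the 1.5-fold rule against untreated.

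Across all leukocytes the Enpp1 level was 19.0 CPM (822 UMIs) in the untreated, 13.9 CPM (920 UMIs) in the STING agonist, 23.4 CPM (1397 UMIs) in the LTβR agonist and 38.3 CPM (1644 UMIs) in the combination library. The combination was past 1.5-fold over all 3, with log2 ratios of 1.01 (0.89 to 1.13) to untreated, 1.46 (1.34 to 1.58) to the STING agonist and 0.71 (0.61 to 0.82) to the LTβR agonist library. Of all genes tested in all leukocytes, 12.5%, 26.6% and 5.62% were past 1.5-fold in these comparisons, against 39.6% for the STING agonist and 10.0% for the LTβR agonist over untreated. Plasma cells carried 27%, 32.5%, 49.8% and 68.9% of the leukocyte Enpp1 UMIs. Without plasma cells the levels were 14.1, 9.46, 12.2 and 12.6 CPM, and the combination stood at -0.15 (-0.33 to 0.02) against untreated and 0.05 (-0.11 to 0.22) against the LTβR agonist library. Over the STING agonist library a ratio of 0.42 (0.25 to 0.59) was left. The 2-fold higher level over untreated was thus not seen in the leukocytes other than plasma cells, of which the combination library held the most.

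The same comparison was made for neutrophils, which held 40.0% of the STING agonist leukocytes. Tbk1 over all leukocytes was 87.0, 129, 95.4 and 97.7 CPM, and without neutrophils 85.5, 113, 93.1 and 95.4 CPM, which took the STING to untreated log2 ratio from 0.56 (0.51 to 0.62) to 0.41 (0.35 to 0.47). Sting1 was 77.5, 58.1, 72.7 and 70.4 CPM over all leukocytes and 79.0, 70.4, 74.8 and 72.8 CPM without neutrophils, and its ratio went from -0.42 (-0.48 to -0.35) to -0.17 (-0.23 to -0.10).

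**Figure D4:**
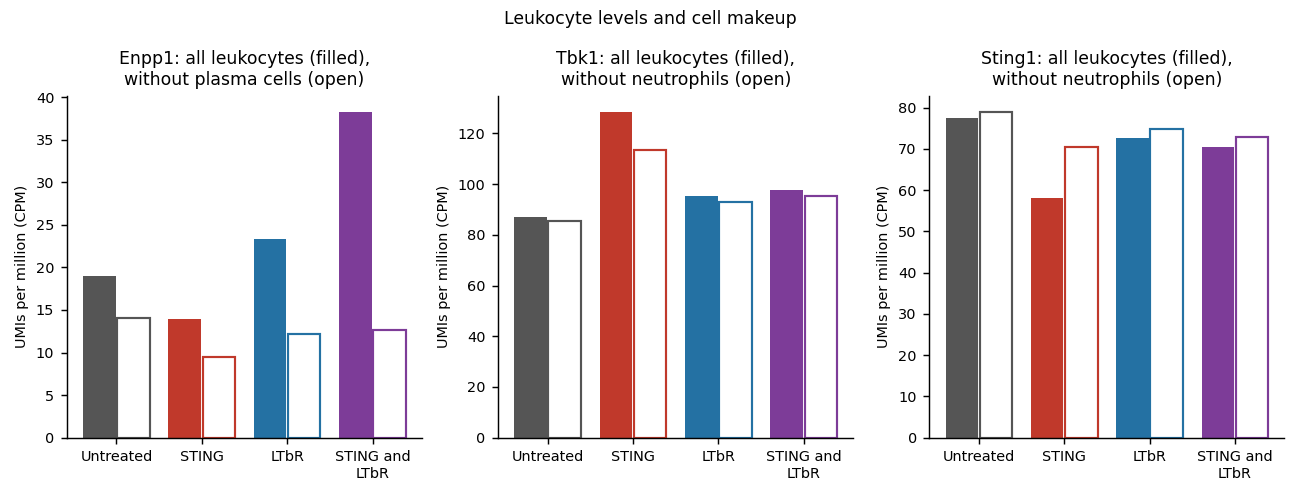
CPM (y axis, from 0) over all leukocytes (filled bars) and without the named cell type (open bars) in the 4 libraries (x axis): Enpp1 without plasma cells, and Tbk1 and Sting1 without neutrophils. The Enpp1 level of 38.3 CPM in the combination library falls to 12.6 CPM without plasma cells, and the Sting1 level of 58.1 CPM in the STING agonist library is 70.4 CPM without neutrophils.

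Within cell types the members also separated along the content of Malat1, a long noncoding RNA retained in the nucleus. In 5 clusters Malat1 was at least 2-fold higher than in the rest of their type. The largest, a macrophage and monocyte cluster of 4461 cells with 25103 CPM of Malat1 against 7362 CPM in the rest, had 10.4 CPM of Sting1, where the other 8 clusters held 26.4 to 110 CPM, and 216 CPM of Tbk1, where they held 84.9 to 128 CPM. NK cells repeated the split, with 20.7 CPM of Sting1 and 111 CPM of Tbk1 in the cluster rich in Malat1 against 70.5 and 63.4 CPM in the other. The 2 T cell clusters of this kind had 10.9 and 10.4 CPM of Sting1 against 39.7 to 74.3 CPM in the other 7. The plasma cell cluster rich in Malat1 held 19.0 CPM of Sting1 and 825 CPM of Enpp1, and the other plasma cell cluster 50.9 and 319 CPM. Irf3 was 10.2 to 28.1 CPM in these 5 clusters. In each of the 4 cell types, the clusters rich in Malat1 were below every other cluster of the type in Sting1 and Irf3 and above every other in Tbk1. Malat1 was also higher in neutrophils (11809 to 13125 CPM) than in macrophages and monocytes as a whole (8224 to 9421 CPM). Median depth in 4 of the 5 was 1367 to 2084 UMIs per cell, lower than in most clusters, and whether nuclear RNA, depth or cell state accompanies these levels was not tested. With the 5 clusters left out, neutrophils were still lowest in Sting1 and highest in Tbk1 in all 4 libraries. This could not come out otherwise, so it is no check. The clusters left out were lowest in Sting1 and highest in Tbk1 within their types, and no neutrophil cluster was among them. Under the alternatives given above, Sting1 was not lowest in neutrophils in all 4 libraries.

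**Figure D5:**
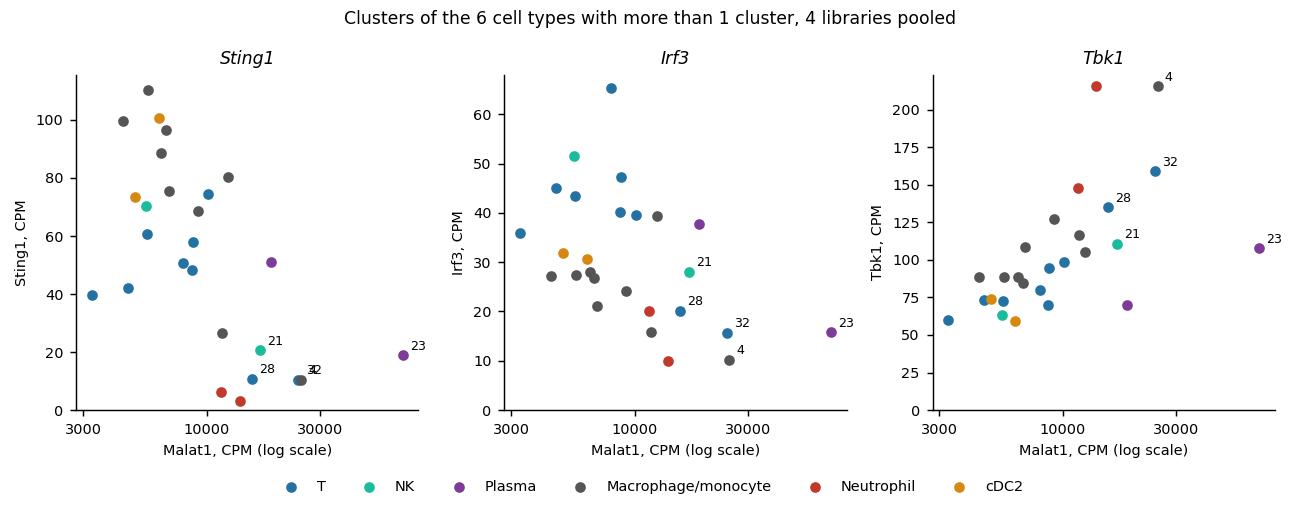
Sting1, Irf3 and Tbk1 (y axes, CPM from 0) against Malat1 (x axes, CPM on a log scale) in the clusters of the 6 cell types that have more than 1 cluster, each point 1 cluster over the 4 libraries. The 5 numbered clusters have at least 2-fold more Malat1 than the rest of their type; their Sting1 lies between 10.4 and 20.7 CPM and their Tbk1 between 108 and 216 CPM.

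How the members compare with other genes within cell types is given by the share past 1.5-fold with an interval that leaves out 0. Over 10 cell types, 6 of 39 member values (15.4%) were past it in the STING agonist against the untreated library, 3 up and 3 down, and 15.4% of all gene values were. For the LTβR agonist it was 4 of 41 (9.76%, 2 up and 2 down) against 9.71% of all values. For the combination it was 4 of 38 (10.5%, 2 up and 2 down) against 10.5%. These shares were near the background, so the members as a group did not move more often than other genes. The combination against the STING agonist gave 8 of 41 (19.5%, 5 up and 3 down) against 13.9%, and against the LTβR agonist 4 of 41 (9.76%) against 6.40%. The comparisons share libraries and are not independent. The Krt8 and Krt18 cluster was counted as 1 of the cell types. It gave 1, 1 and 2 of the rises against untreated, in the order STING agonist, LTβR agonist and combination. For the combination it gave 2 up and 1 down over the STING agonist and 1 up over the LTβR agonist library. Sting1 in neutrophils, read above as background, was among the 3 falls with the STING agonist. Beyond the values given above, those past the rule were Sting1 in plasma cells with the LTβR agonist over untreated (0.72, 0.04 to 1.53), Sting1 in the Krt8 and Krt18 cluster (1.05), Cgas in neutrophils (0.74), Tbk1 in the Krt8 and Krt18 cluster (-0.65) and Enpp1 in T cells (-0.63) for the combination over the STING agonist, Cgas in cDC2 (-0.69) for the combination over the LTβR agonist, and Enpp1 in cDC2 with the LTβR agonist over untreated (-0.97, -1.78 to -0.17). Several of these did not meet the rule under other settings: Cgas in cDC2 was -0.38 without doublet removal, -0.09 with each cell named on its own and -0.43 after thinning, Cgas in neutrophils was 0.47 with each cell named on its own and 0.10 after thinning, and Enpp1 in T cells was -0.43 without doublet removal and -0.17 after thinning. Tbk1 in the Krt8 and Krt18 cluster was -0.37 without doublet removal and -0.04 as a mean over cells, and Sting1 in plasma cells 0.63 without doublet removal. Enpp1 in cDC2 turned to 0.20 after thinning. The cDC2 were not the same mix in each library: the cluster led by Retnla made up 33 of 303 untreated, 16 of 229 STING agonist, 188 of 612 LTβR agonist and 227 of 717 combination cDC2. Within the clusters, the Cgas ratio was -0.61 (-1.53 to 0.22) in that one and -0.75 (-1.47 to -0.10) in the other, and the Enpp1 ratio in the other was -0.83 (-1.68 to -0.01). The former cluster had 0 Enpp1 UMIs untreated and 3 with the LTβR agonist, too few for a ratio.

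The surrounding pathway was described with 70 further genes in 4 lists: factors upstream of STING, regulators and adaptors, the type I interferon receptor with its signaling, and targets. In macrophages and monocytes of the STING agonist library, 5 of the 67 tested were higher and 6 lower past 1.5-fold, where 21.2% of all genes were past it. The list median was -0.17 and that of all genes -0.21. Among the 16 targets 3 were higher and 4 lower. The cytokine genes Il6 (110 against 22.0 CPM untreated, log2 ratio 2.32) and Tnf (235 against 64.0 CPM, 1.88) and the interferon gene Ifnb1 (101 against 20 UMIs, 1.69) were higher, while the interferon-induced genes Ifit3 (-1.10) and Ifit2 (-0.91) were lower. P2rx7, a channel gated by extracellular ATP and placed in the upstream list, was lower as well (-0.94). Neutrophils held 494 CPM of Tnf untreated and 534 CPM with the STING agonist, and the neutrophil markers in macrophages and monocytes (551 and 1244 CPM) would have carried 4.8 and 9.93 CPM of it. None of the 8 genes of the interferon receptor list was past 1.5-fold there. The class itself was a different mix of clusters in each library: the cluster led by Clec5a and Lif made up 7.76% of it untreated and 23.4%, 21.2% and 11.9% with the STING agonist, the LTβR agonist and both, and a smaller one led by Cadm4 1.2% and 5.69% for untreated and STING agonist. With the clusters weighted equally, an alternative chosen after the data were seen, the STING to untreated ratios were 1.35 for Il6, 1.42 for Tnf, 0.98 for Ifnb1 (1 cluster with enough UMIs), -1.26 for Ifit3, -1.16 for Ifit2 and -0.39 for P2rx7, so that P2rx7 was no longer past 1.5-fold. Il6 was above untreated in the 6 clusters with enough UMIs (0.28 to 2.95) and Tnf in all 8 (0.10 to 1.76), while Ifit2 and Ifit3 were below it in all 8.

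With the LTβR agonist, macrophages and monocytes had 2 genes higher and 1 lower of 68 tested (all genes, 9.35%), and with the combination 3 higher and 4 lower of 67 (all genes, 9.69%). Il6 and Ifnb1 were higher and Ifit3 lower in both (Il6 1.84 and 1.32, Ifit3 -0.62 and -0.72). Ifnb1 rested on 48 and 37 UMIs against 20 untreated (0.81, 0.05 to 1.66, and 0.85, 0.05 to 1.73), and no single cluster had enough Ifnb1 UMIs for a ratio in these comparisons, against 1 for the STING agonist (0.79). With the clusters weighted equally the ratios were 1.17 and 0.95 for Il6 and -1.05 and -1 for Ifit3. For Ifnb1 they were 0.39 and 0.87, so that the LTβR agonist ratio was no longer past 1.5-fold. The nuclease gene Dnase1l3 was higher in the combination (1.02). In neutrophils, including genes at the level of carried RNA, 4 were higher and 6 lower of 56 with the STING agonist (all genes, 24.3%), 1 higher and 7 lower of 42 with the LTβR agonist (17.4%), and 4 higher and 9 lower of 44 with the combination (13.3%). At or below the carried level, also in the library where they were higher, were 1 of the 7 lower with the LTβR agonist (Cxcl9) and 2 of the 4 higher with the combination (Lrrc8c and Ccl5). Tbkbp1, which encodes an adaptor of TBK1, was lower in neutrophils of all 3 treated libraries than in the untreated one (-1.14, -1.17 and -1.13), from 60.4 CPM (56 UMIs) to between 26.8 and 27.6 CPM. Its ratios in the Nlrp12 cluster were -0.88, -1.43 and -0.89. In the Mgam cluster only that of the STING agonist had enough UMIs, at -1.37. Optn, another adaptor that binds TBK1, was higher there with the STING agonist (0.83) and the combination (0.77). Its ratios were 0.78 and 1.11 in the Nlrp12 cluster, and 0.37 and 0.31 in the Mgam cluster, where neither was past 1.5-fold.

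In T cells 3 were higher and none lower of 59 with the STING agonist (all genes, 9.61%), 5 higher and 1 lower of 61 with the LTβR agonist (10.8%), and 5 higher and 1 lower of 60 with the combination (9.21%). Of those higher, 1 of 3, 2 of 5 and 3 of 5 stood at or below the level that carried macrophage RNA would give (Ifi204 in all 3, Irf5 in the last 2 and Cxcl9 in the combination) and are not read as T cell differences. The DNA-sensor gene Ifi204 was past the rule in all 3 (0.81, 1.12 and 0.94), but at 10.7 CPM untreated and 18.6, 23.3 and 20.5 CPM treated it was below the carried level (16.6, 27.1, 41.1 and 32.3 CPM), in each library. T cells were also a different mix of clusters in each library. The cluster with Lef1 and Tcf7 held 227 of 1393 untreated, 182 of 613 STING agonist, 823 of 2075 LTβR agonist and 726 of 1675 combination T cells. The part of this mix in the counts was not tested. In NK cells 1 was higher and 3 lower of 46 (7.45%), none higher and 3 lower of 53 (4.90%), and 2 higher and 2 lower of 47 (7.18%), in the same order. Ifit2 was lower in NK cells of all 3 treated libraries (-1.09, -0.77 and -1.25), from 38.3 CPM (55 UMIs) to 17.9, 22.5 and 15.7 CPM. Carried macrophage RNA would account for 11.4, 7.17, 14.5 and 9.96 CPM of these, and Ifit2 in macrophages and monocytes was itself 140, 74.5, 123 and 89.4 CPM; its part in the result was not tested. These treated libraries share the untreated library as their reference.

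Genes whose levels across 41 sums of cell type and library were most like those of a member were found by Pearson's r of log2 CPM among 8463 genes. For Sting1 they were Dcxr (0.927), Taf10, Jpt1, Commd4 and Cox5a (0.903), for Tbk1 Xylt1 (0.844), Braf, Osbpl8, Sik3 and Zc3h12a, and for Ikbke Dgkz (0.901), Arid5b, Spata13, Zcchc2 and Ctsd. Cgas was most like Tbkbp1 (0.809), Irf3 like Rfc2 (0.859), and Enpp1 like Prmt7 (0.955) and Pdia4 (0.909). Between members r was -0.516 for Sting1 and Tbk1, 0.523 for Tbk1 and Ikbke, and 0.589 for Sting1 and Irf3. The sums share libraries, depth and cell types, and r is given as a description.

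The bases before the start of Tbk1 and Enpp1 are shown because these are the 2 genes with 1 cell type at the top in all 4 libraries. Each is the 250 bases upstream of the RefSeq start (GRCm38.p6), on the minus strand, written 5′ to 3′. Capitals mark matches on either strand to the letters of an NF-kB site (GGG, any 5 bases, then CC), which occur in 45.8% of 32851 mouse promoters of that length.
Tbk1, chr10:121586795-121587044: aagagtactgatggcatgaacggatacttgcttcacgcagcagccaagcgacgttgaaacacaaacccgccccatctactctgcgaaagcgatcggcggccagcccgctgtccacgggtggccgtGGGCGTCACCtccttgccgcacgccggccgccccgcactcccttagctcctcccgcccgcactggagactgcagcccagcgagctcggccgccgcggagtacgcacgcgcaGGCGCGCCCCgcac
Enpp1, chr10:24712160-24712409: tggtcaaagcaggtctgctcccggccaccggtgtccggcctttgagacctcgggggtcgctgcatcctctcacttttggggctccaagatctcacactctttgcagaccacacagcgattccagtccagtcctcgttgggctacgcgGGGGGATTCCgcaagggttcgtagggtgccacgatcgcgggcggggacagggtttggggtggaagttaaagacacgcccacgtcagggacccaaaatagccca
Tbk1 had 2 matches and Enpp1 had 1. The letters of the interferon-stimulated response element (GAAA, any 2 bases, GAAA; 2.98% of promoters) and those of the GAS element (TTC, any 3 bases, GAA; 7.02%) did not occur on either strand in these windows, nor in those of Cgas, Ikbke, Irf3 and Trex1. These are letter matches in a short window and say nothing about binding.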

How the data were processed

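Single-cell RNA-seq was performed on 4 libraries, 1 per group. Per the labels the GEM-X 5′ v3 kit was used, while the study's methods name the Next GEM 5′ v2 kit. The authors aligned reads to mm10 and deposited unnormalized UMI counts per gene and cell. Cell Ranger 7.1.0 is named in the submitters' processing notes and 8.0.1 in the file headers.

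Cells with under 300 or over 5000 genes or over 6% mitochondrial UMIs were removed, as in the study. Doublets were called by simulation; since the automatic threshold marked 0 to 1 cells per library, the top scores at 0.4% per 1000 cells were removed (305 to 1066 cells). Scanpy 1.11.5 gave 35 clusters from 2000 variable genes, 30 components and 20 neighbors (Leiden resolution 1). A cluster was named when at least 3 markers were 2-fold higher and in 10% of cells; 241 to 576 cells per library stayed unnamed. The naming thresholds, and the merging of macrophages with monocytes, were set after the data were seen.

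UMIs were summed per cell type and library. Levels carry exact Poisson intervals and log2 ratios, with 0.5 UMI added, exact binomial intervals. A ratio was called past 1.5-fold if its 95% interval left out 0 and 50 UMIs stood behind it over both libraries with at least 50 cells in each. All 7 members were named, with up to 3 genes per direction of the pathway lists in 4 cell types. The call step was tested on simulated counts. Members, lists and rules were chosen with earlier results of these data known. A count of 0 allows up to 3 counts.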

Additional observations from a re-analysis of the deposited data

Results flagged for a closer look

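In 6 instances a gene was past 1.5-fold in one direction in 1 cell type and in the opposite direction in another within the same comparison. The difference between the cell types was not tested in any of them, since there was 1 library per group. For the STING agonist against the untreated library, Sting1 had a log2 ratio of 0.85 in cDC1 and -1.57 in neutrophils, where its counts were at or near background. The cDC1 value was 0.31 when each cell was named on its own. In the same comparison Cgas was at 0.72 in T cells, a value of 0.46 without doublet removal, and -0.67 in macrophages and monocytes, and Tbk1 at 0.76 in the Krt8 and Krt18 cluster and -1.05 in plasma cells, where the level of the STING agonist library was close to the estimate of carried macrophage RNA. For the combination against the untreated library, Irf3 was at 1.04 in the Krt8 and Krt18 cluster and -0.75 in NK cells. For the combination against the STING agonist library, Tbk1 was at 0.85 in plasma cells and -0.65 in the Krt8 and Krt18 cluster. For the combination against the LTβR agonist library, Irf3 was at 0.72 in the Krt8 and Krt18 cluster, a value of 0.47 without doublet removal, and -0.87 in NK cells.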

How the results depend on the processing

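Enpp1 remained highest in plasma cells in all 4 libraries under each alternative set in advance; without the clusters rich in Malat1, an alternative chosen after the data were seen, plasma cells were highest in the 2 libraries that still had 50 of them (2). Tbk1 was highest in neutrophils in all 4 except after thinning to 2000 UMIs per cell (3). Sting1 was lowest in neutrophils in 1 library without doublet removal, in 1 when each cell was named on its own and in 2 after thinning.

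Of the 26 member values past 1.5-fold, 26 stayed past it at resolution 2, with no UMI minimum, with 0.1 UMI added and without shared barcodes, 25 with all genes in the total and with at least 1000 UMIs per cell, 22 after scaling to the median gene, 19 as a mean over cells, 15 without doublet removal, 8 of 22 with cells named singly, 6 at a 2-fold rule, 4 of 4 with a minimum of 200 UMIs, 20 of 21 without the clusters rich in Malat1 and 0 after thinning, which leaves fewer UMIs. None stayed past it under all 11 alternatives that keep the rule. Thinning turned Irf3 in plasma cells, combination over STING agonist, to -0.38 and Enpp1 in cDC2, LTβR agonist over untreated, to 0.20. Leaving out plasma cells (added after seeing the data) turned Enpp1 in all leukocytes, combination over untreated, to -0.15. The cause was not tested.

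The order here is STING agonist, LTβR agonist and combination over untreated, then combination over STING agonist and over LTβR agonist. Values past the rule numbered 6, 4, 4, 8 and 4 in the main setting and 2, 0, 0, 2 and 1 after thinning. None of those counted after thinning was among the 26 of the main setting. The counts were 2, 0, 0, 2 and 0 with a minimum of 200 UMIs and 2, 0, 2, 2 and 0 at a 2-fold rule. Naming each cell singly gave 2 for the STING agonist, 2 for the LTβR agonist, 4 for the combination over the STING agonist and 1 over the LTβR agonist. No doublet removal gave 2 for the LTβR agonist and 2 for the combination over it. The mean over cells gave 8 for the combination over untreated and 7 over the LTβR agonist, no UMI minimum gave 8 for the combination over untreated, and leaving out the clusters rich in Malat1 gave 2 for the LTβR agonist and 5 for the combination over the STING agonist. No paired analysis was possible because each group has 1 library.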
